A study of Arabidopsis with 12 samples.

Results

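WRKY6, WRKY53, STZ and CML38 are 4 stress regulators of Arabidopsis: a pair of WRKY transcription factors, a zinc finger transcription factor and a calmodulin-like calcium sensor. They were taken as every feature whose probe set is annotated to one of these names, which gave 4 genes of 22588 features, each with 1 probe set on the ATH1 array: 264746_at for WRKY6 (locus AT1G62300), 254231_at for WRKY53 (AT4G23810), 261648_at for STZ (AT1G27730) and 259879_at for CML38 (AT1G76650). The genes were selected on their MeJA and genotype differences across these same arrays, so their levels and differences are given as a description and without p-values. RNA came from whole 7-day-old seedlings on MS medium, all in the Columbia background, after 4 h with 100 µM methyl jasmonate (MeJA) or with the ethanol solvent (mock). The 6 groups were the coi1 mutant coi1-2 with MeJA and with mock, the double mutant ein3 eil1 with MeJA and with mock, and the wild type Col-0 with MeJA and with mock, with 2 arrays in each and 12 in all. COI1 is the F-box subunit that perceives jasmonate, and EIN3 and EIL1 are the transcription factors that ethylene signalling stabilises. The study's design set out to measure the share of jasmonate-regulated transcripts that need COI1 or EIN3 and EIL1.

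In plants, the active jasmonate binds COI1 together with JAZ repressors, which are then destroyed, and this frees transcription factors such as MYC2 as well as EIN3 and EIL1. WRKY factors bind W-box elements in promoters: WRKY6 is known for roles in senescence, defence and phosphate starvation, and WRKY53 for promoting leaf senescence. STZ, also called ZAT10, is a transcriptional repressor induced by salt, cold, drought and oxidative stress. CML38 is an EF-hand protein whose transcript is known to rise on wounding, touch and lack of oxygen.

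EIN3, the check of the labels, was at 6.03 and 5.91 in ein3 eil1 with MeJA and at 5.95 and 6.25 in ein3 eil1 with mock, against 9.26 to 9.59 on the other 8 arrays. Levels are log2 values after RMA, a method that gives the arrays nearly the same distribution; array medians lay between 5.23 and 5.40 and lower quartiles between 3.74 and 3.87. Replicate arrays correlated at 0.9898 to 0.9961 across features. The labels do not say that replicates were separate cultures, so the errors and p-values cover the variation between these arrays, which could be purely technical, and 2 arrays per group limit the precision. In RNA from whole seedlings, fewer cells of a type and less RNA per cell cannot be told apart.

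STZ stood low in 1 group only. It was at 8.55 and 8.32 in coi1-2 with MeJA, against 8.79 and 8.56 in coi1-2 with mock. In ein3 eil1 it was at 8.58 and 9.29 with MeJA, against 8.64 and 8.75 with mock. Col-0 had 8.36 and 8.83 with MeJA, against 7.16 and 6.58 with mock. The Col-0 mock arrays thus lay below the other 10, which spanned less than 1 log2 unit, and no other neighbouring pair of group means in the order of levels lay further apart than the gene's pooled within-group SD of 0.31 (6 degrees of freedom). For each of the 4 genes, a gap beyond its pooled SD is a description and does not by itself settle an order. The order was ein3 eil1 with MeJA (8.94 ± 0.50, SD, n = 2), ein3 eil1 with mock (8.69 ± 0.08), coi1-2 with mock (8.68 ± 0.16), Col-0 with MeJA (8.59 ± 0.33), coi1-2 with MeJA (8.44 ± 0.17) and, after a gap of 1.57, Col-0 with mock (6.87 ± 0.42). Both mutants under mock were above Col-0 by about the size of the wild type's own MeJA difference: 1.81 ± 0.25 in coi1-2 (log2, SE) and 1.82 ± 0.25 in ein3 eil1, or 3.50-fold and 3.54-fold, beside 1.72 ± 0.25 (3.30-fold) for MeJA in Col-0. All of these differences use the same Col-0 mock arrays.

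WRKY6 was highest in coi1-2 with or without the hormone. Its levels were 8.95 and 8.87 in coi1-2 with MeJA, against 9.22 and 9.03 in coi1-2 with mock. In ein3 eil1, the levels of WRKY6 were 7.49 and 7.70 with MeJA, against 8.20 and 8.18 with mock. In Col-0, they were 7.78 and 8.49 with MeJA, against 7.67 and 7.05 with mock. The 4 coi1-2 arrays lay above the other 8. MeJA went with a higher level in Col-0 (0.77 ± 0.23, 1.71-fold) and with a lower one in ein3 eil1 (-0.60 ± 0.23, 1.51-fold lower), and the difference in coi1-2 was -0.22 ± 0.23. Under mock the gene was above Col-0 by 1.77 ± 0.23 (3.41-fold) in coi1-2 and by 0.83 ± 0.23 in ein3 eil1, the second being 0.52 without Col-0 mock replicate 2. In the order of group means, coi1-2 with mock (9.13 ± 0.14, SD, n = 2) and coi1-2 with MeJA (8.91 ± 0.05) were followed, beyond the pooled SD of 0.29, by ein3 eil1 with mock (8.19 ± 0.01) and Col-0 with MeJA (8.13 ± 0.50), and then, again beyond it, by ein3 eil1 with MeJA (7.60 ± 0.15) and Col-0 with mock (7.36 ± 0.44). Within each of these 3 pairs the means were closer than the pooled SD. The Col-0 MeJA difference rests on arrays that themselves differed by 0.71 (MeJA) and 0.62 (mock), and it ran between 0.42 and 1.13 when 1 of the 4 was left out.

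WRKY53 was measurable above the low end of the arrays in a single group. In coi1-2 it was at 3.50 and 3.87 with MeJA, against 5.47 and 5.30 with mock. In ein3 eil1, WRKY53 was at 3.47 and 3.37 with MeJA, against 3.72 and 3.81 with mock. Col-0 had 3.47 and 3.24 with MeJA, against 3.82 and 3.67 with mock. Only the coi1-2 mock arrays reached the middle of their arrays, at the percentiles 52.2 and 49.9 of all features, while the other 10 lay between the percentiles 2.0 and 26.8. No detection calls were used, and on 8 of 12 arrays the gene was below the lower quartile, a range in which background can dominate. The level in coi1-2 mock, 5.39 ± 0.12 (SD, n = 2), was 1.64 ± 0.15 (log2, SE) above Col-0 mock, or 3.12-fold, and the MeJA difference in coi1-2 was -1.70 ± 0.15 (3.25-fold lower). Since the lower group of both differences sits near background, their size is uncertain and may be understated. The MeJA difference in Col-0 (-0.39 ± 0.15) lies wholly in that range, and that in ein3 eil1 (-0.35 ± 0.15) does so but for mock replicate 2, just above the quartile of its array. Of the gaps between neighbours in the order of levels, that below coi1-2 mock was 1.62, that below coi1-2 MeJA was 0.27, and the other 3 were within the pooled SD of 0.15.

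CML38 was highest in ein3 eil1 with MeJA. With MeJA, CML38 was at 8.43 and 8.39 in coi1-2, against 8.01 and 8.42 in coi1-2 with mock. The ein3 eil1 arrays had 9.69 and 10.16 with MeJA, against 8.81 and 9.52 with mock. In Col-0, CML38 was at 8.97 and 8.83 with MeJA, against 7.78 and 6.85 with mock. Both Col-0 mock arrays lay below the other 10, and both ein3 eil1 MeJA arrays above them. MeJA went with a level 1.58 ± 0.29 (log2, SE) higher in Col-0, or 3.0-fold, 0.76 ± 0.29 higher in ein3 eil1 (0.40 without mock replicate 1) and 0.20 ± 0.29 higher in coi1-2, where the MeJA and mock arrays overlapped. Under mock, ein3 eil1 was 1.85 ± 0.29 above Col-0 (3.60-fold) and coi1-2 0.90 ± 0.29, the second being 0.44 without Col-0 mock replicate 2 and 1.36 without replicate 1. With MeJA, ein3 eil1 was 1.03 ± 0.29 above Col-0, and coi1-2 was at -0.49 ± 0.29 relative to it. The gaps beyond the pooled SD of 0.38 were those below ein3 eil1 with MeJA (0.76), below Col-0 with MeJA (0.49) and above Col-0 with mock (0.90). Within it, ein3 eil1 with mock and Col-0 with MeJA could not be ordered, nor could the 2 coi1-2 groups. Nor is the order of Col-0 and coi1-2 with MeJA settled, since the 95% interval of the coi1-2 difference from Col-0 ran from -1.12 to 0.14. The Col-0 mock arrays differed by 0.93 in this gene, and the Col-0 MeJA difference was 1.12 without the lower and 2.05 without the higher of them.

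**Figure D1:**
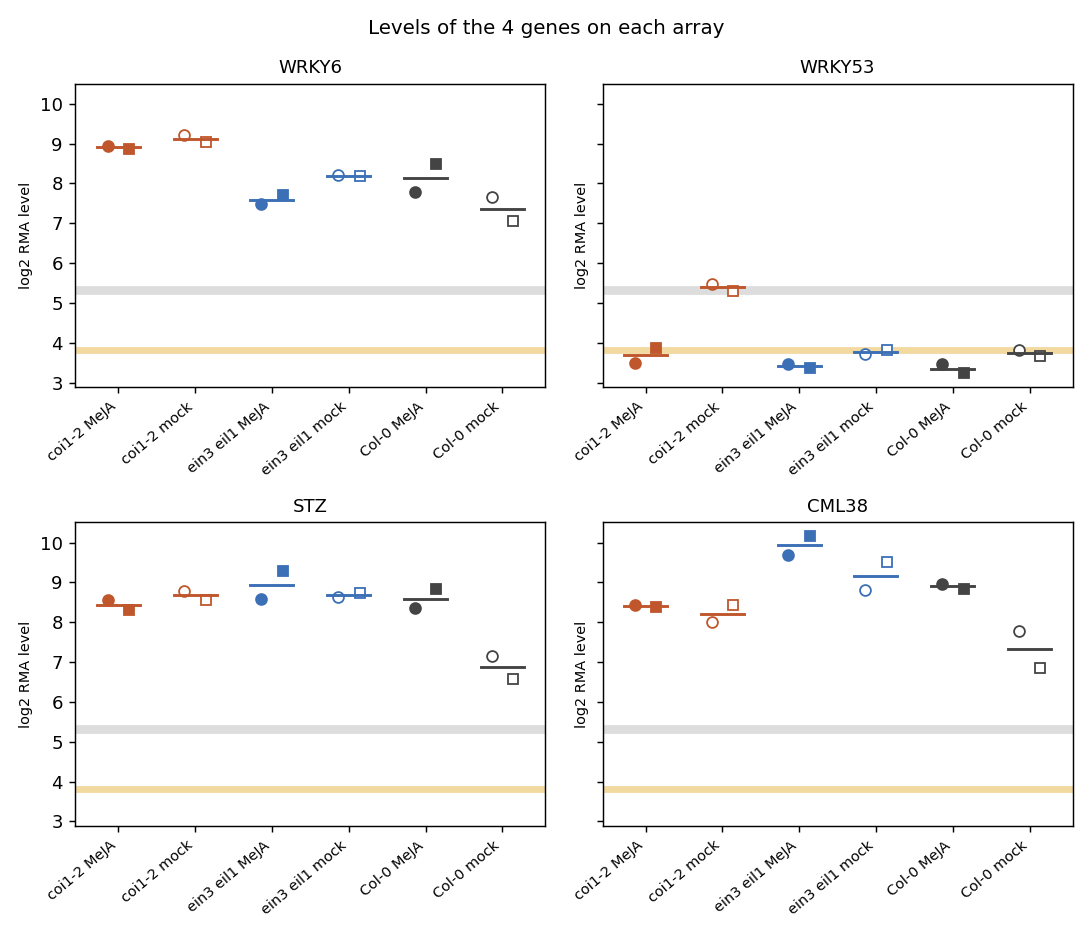
Log2 RMA level (y axis) of WRKY6, WRKY53, STZ and CML38 on each of the 12 arrays, by group (x axis). Circles are replicate 1, squares replicate 2, filled symbols MeJA, open symbols mock, and lines the group means. The grey band spans the array medians and the yellow band the lower quartiles. STZ and CML38 are lowest in Col-0 mock, WRKY6 is highest in coi1-2, and WRKY53 leaves the yellow band's level in coi1-2 mock.

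Under mock all 4 genes were higher in coi1-2. Both coi1-2 arrays then lay above both Col-0 arrays for 4 of 4 genes, against 23.7% of all features, with differences from 0.90 (CML38, 0.44 to 1.36 with 1 array left out) to 1.81 (STZ). In ein3 eil1 under mock this was so for 3 of 4 genes, against 23.2% of features. WRKY53 was the exception at 0.02 ± 0.15, but it was near background in both groups, so a lack of difference cannot be read from it. With MeJA, 2 of 4 genes lay above Col-0 in coi1-2 (24.9% of features), WRKY6 by 0.78 ± 0.23 and WRKY53, again near background, by 0.33 ± 0.15. CML38 lay below (25.5% of features). With 1 array left out, that WRKY6 difference ran from 0.42 (without Col-0 MeJA replicate 1) to 1.13 and that of WRKY53 from 0.15 (without coi1-2 MeJA replicate 2) to 0.52 (without coi1-2 MeJA replicate 1). In ein3 eil1 with MeJA, 1 of 4 lay above Col-0, namely CML38 (21.9% of features), and 1 below, WRKY6 at -0.54 ± 0.23 (20.1% of features), or -0.18 without Col-0 MeJA replicate 2 and -0.89 without replicate 1. These comparisons chose the genes, so nothing is read from the counts.

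In Col-0, both MeJA arrays lay above both mock arrays for 3 of 4 genes (20.1% of features) and below for WRKY53 (27.2% of features). In coi1-2 no gene had both MeJA arrays above both mock arrays (20.6% of features), and 3 of 4 had them below (21.8% of features): WRKY53, WRKY6 and STZ, the last at -0.24 ± 0.25 and with arrays that nearly touched. In ein3 eil1 the MeJA arrays of CML38 lay above (21.6% of features), those of WRKY6 and WRKY53 below (21.5% of features), and those of STZ, at 0.24 ± 0.25, overlapped the mock arrays. The STZ value in ein3 eil1 was -0.11 without MeJA replicate 2.

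**Figure D2:**
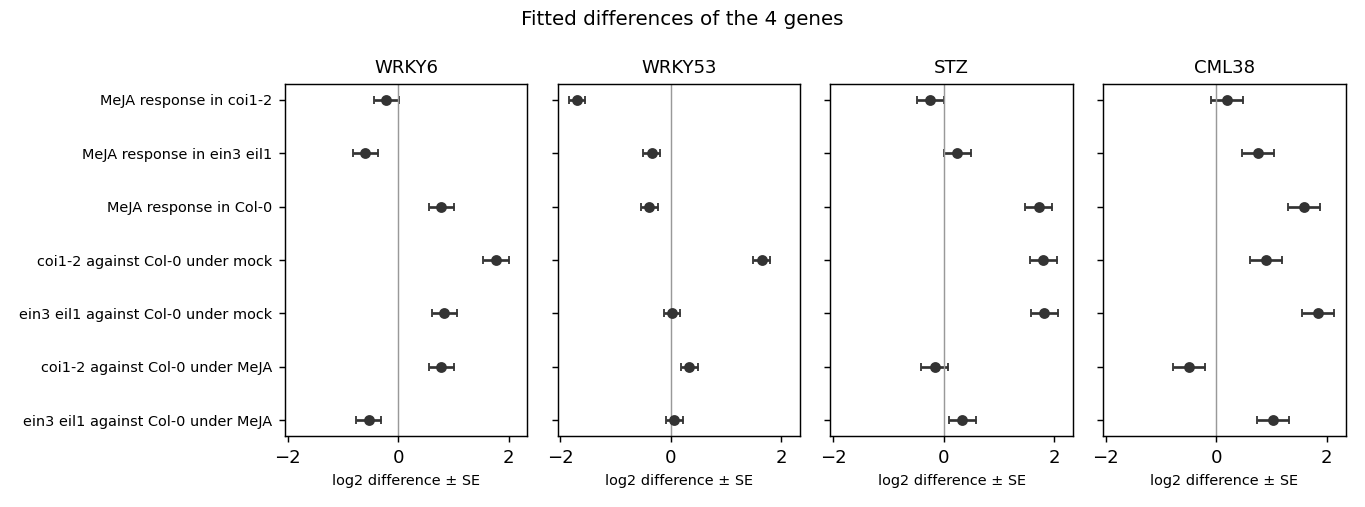
Fitted log2 differences (x axis, points) with their standard errors (bars) for 7 comparisons (y axis), 1 panel per gene, over 2 arrays per group. MeJA differences are MeJA minus mock and genotype differences are mutant minus Col-0. STZ has 3 differences near 1.8, all of which use the Col-0 mock arrays, and WRKY53 has 2 large ones of opposite sign, both of which use the coi1-2 mock arrays.

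The difference between the MeJA differences of a mutant and of Col-0 addresses the question of the design directly. In coi1-2 it was below 0 for all 4 genes: STZ at -1.96 ± 0.35 (log2, SE, n = 2 arrays in each of 4 groups), CML38 at -1.39 ± 0.41, WRKY53 at -1.31 ± 0.21 and WRKY6 at -0.99 ± 0.32. In ein3 eil1 it was -1.48 ± 0.35 for STZ, -1.37 ± 0.32 for WRKY6 and -0.82 ± 0.41 for CML38, and 0.04 ± 0.21 for WRKY53. STZ, WRKY6 and CML38 were already higher in both mutants under mock, so a smaller difference by itself does not show dependence on the mutated gene. For STZ the mutants with and without MeJA stood at about the level of Col-0 with MeJA. For WRKY53 the mock level was high in coi1-2, while all Col-0 arrays lay below their lower quartiles. A smaller fall in Col-0 and a level too low to fall further cannot be told apart. The WRKY53 value in ein3 eil1 rests on levels near background too. Both sets of values share the Col-0 arrays. Without Col-0 mock replicate 2, the CML38 value was -0.92 in coi1-2 and -0.36 in ein3 eil1, where it was -1.29 without Col-0 mock replicate 1 and -0.47 without ein3 eil1 mock replicate 2. The WRKY6 value in coi1-2 ran from -1.35 to -0.64 with 1 array left out, the weakest without Col-0 MeJA replicate 2.

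The spread between replicate arrays was wide for 3 of the genes. The pooled within-group SD was 0.38 for CML38, 0.31 for STZ and 0.29 for WRKY6, at the percentiles 98.7, 96.0 and 93.5 of all features, whose median was 0.15. WRKY53 was at 0.15, the percentile 46.7. In Col-0 mock all 4 genes were higher on replicate 1 than on replicate 2, by 0.15 (WRKY53) to 0.93 (CML38), and in ein3 eil1 with MeJA 3 of 4 were higher on replicate 2, STZ by 0.71.

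Other WRKY genes were tested in the fit across all features, with Benjamini-Hochberg adjusted p-values from limma. Of 71 WRKY genes in the gene table, 7 had a probe set with a single gene name here, WRKY6 and WRKY53 among them, so 5 were tested and the counts are not shares of the family. Under mock, limma called 0 of 5 lower in coi1-2 than in Col-0, with 0 at an unadjusted p under 0.05, against 6.07% of all features. It called 2 of 5 higher, against 7.41% of all features. These were WRKY22, known for its part in immune signalling, with 8.04 and 7.78 in coi1-2 against 7.22 and 6.74 in Col-0 (0.93 ± 0.19, adjusted p = 0.00593), and WRKY47, with 6.49 and 6.48 against 5.58 and 6.04 (0.67 ± 0.18, adjusted p = 0.0254). WRKY22 did not pass without Col-0 mock replicate 2 (0.69, adjusted p = 0.066) or coi1-2 mock replicate 1 (0.80, adjusted p = 0.0538). WRKY47 did not pass without Col-0 mock replicate 1, where its difference was 0.44 (adjusted p = 0.214). Without either coi1-2 mock array it did not pass either (adjusted p = 0.0962 and 0.104), but the difference hardly moved (0.67 and 0.68). With MeJA, WRKY22 was again higher in coi1-2 (1.15 ± 0.19, adjusted p = 0.00215), 1 of 5 against 4.19% of features. The list's median difference under mock was -0.08, beside -0.03 for all features.

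MeJA lowered single WRKY genes. WRKY22 had 5.89 and 6.23 in Col-0 with MeJA, against 7.22 and 6.74 with mock, and fell by 0.92 on the log2 scale (SE 0.19, adjusted p = 0.00906), 1 of 5 against 3.07% of features. It no longer passed without replicate 1 of Col-0 mock (0.0982) or of Col-0 MeJA (0.0921). WRKY22 was at -0.70 ± 0.19 in coi1-2 (adjusted p = 0.0899) and -0.56 ± 0.19 in ein3 eil1 (adjusted p = 0.144), and neither passed. In ein3 eil1, WRKY47 had 4.90 and 5.32 with MeJA, against 6.11 and 5.82 with mock (-0.85 ± 0.18, adjusted p = 0.0179), 1 of 5 against 2.61% of features, and this call was lost without mock replicate 1 (0.185) or MeJA replicate 1 (0.122). WRKY47 was at -0.69 ± 0.18 in coi1-2 (adjusted p = 0.0701) and -0.18 ± 0.18 in Col-0 (adjusted p = 0.696), and neither passed. The coi1-2 value passed with quantile normalization (adjusted p = 0.0471) and with arrays centred on their medians (0.0405). WRKY42, the closest measured relative of WRKY6, stayed between 3.62 and 4.14 on all 12 arrays, near the lower quartiles (percentiles 19.8 to 33.2). A lack of difference in WRKY42 cannot be read from that range. Neither WRKY42 nor WRKY20 nor ZAP1 (WRKY1) was called in any of the 9 comparisons. In ein3 eil1 under mock limma called 0 of the 5 WRKY genes in either direction, with 0 at an unadjusted p under 0.05, against 9.33% of features.

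**Figure D3:**
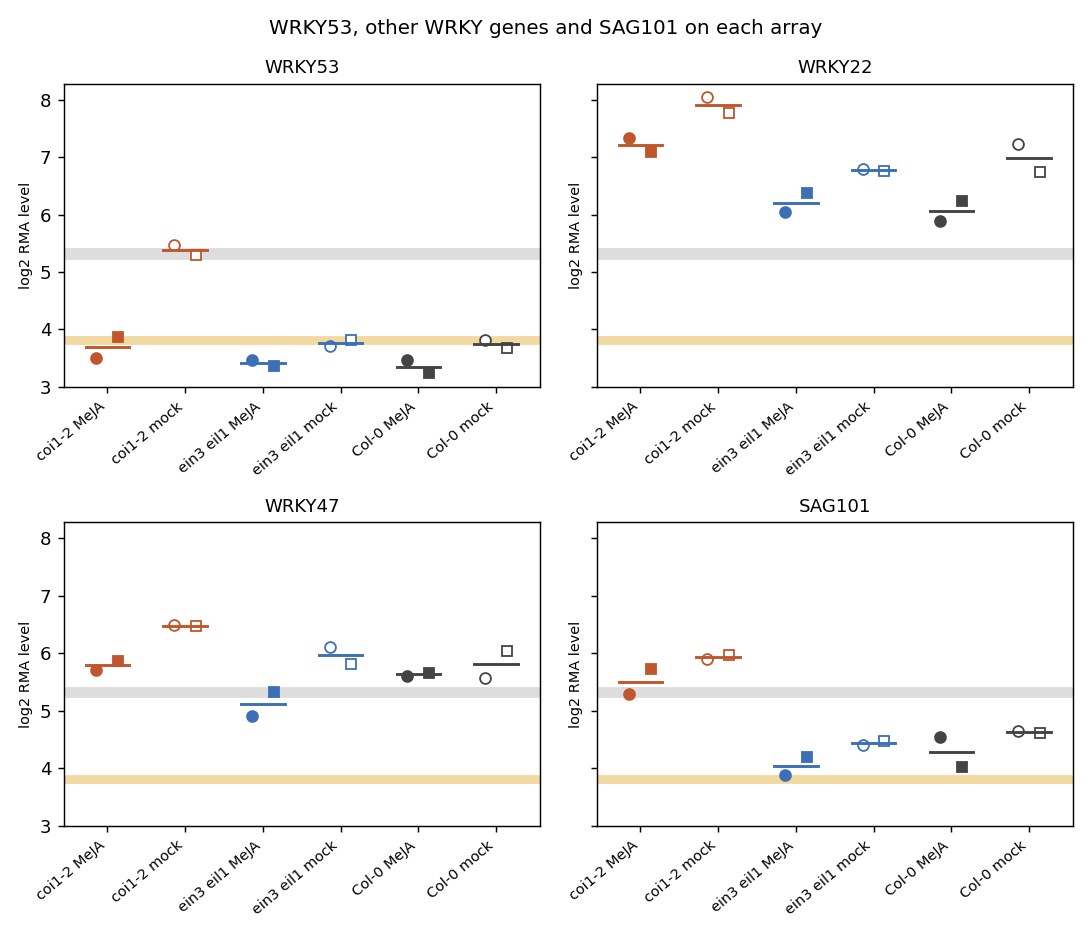
Log2 RMA level (y axis) of WRKY53, WRKY22, WRKY47 and the senescence-associated gene SAG101 on each array, by group (x axis), with symbols, lines and bands as in the plot of the 4 genes. All 4 have their highest group mean in coi1-2 mock.

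Several calmodulin-like genes beside CML38 were higher in the mutants under mock. Of 21 calmodulin and calmodulin-like genes found by symbol, 7 were tested besides CML38. Under mock 3 of 7 were higher in ein3 eil1 than in Col-0 (6.13% of features) and 2 of 7 higher in coi1-2 (7.41% of features). In limma 0 of 7 were lower in either, with 1 lower in coi1-2 at an unadjusted p under 0.05. Over all 22588 features, 723 were lower in ein3 eil1 and 1372 (6.07%) in coi1-2. The highest difference belonged to AT1G76640, for which the gene table gives CML39 as a synonym, a name it also lists for CML37. AT1G76640 is the gene next to CML38 in the gene table, and it is called by its locus code here. It was at 9.09 and 9.46 in ein3 eil1 with MeJA and at 7.98 and 8.09 with mock, against 6.50 and 6.17 in Col-0 with MeJA and 4.85 and 4.96 with mock. In coi1-2 it was at 4.68 and 4.56 with MeJA and at 4.48 and 4.58 with mock. Like CML38, AT1G76640 was thus highest in ein3 eil1 with MeJA, but its coi1-2 arrays lay below those of Col-0 mock, by a difference that did not pass (-0.38 ± 0.15, adjusted p = 0.142), while those of CML38 lay above. With MeJA it was lower in coi1-2 than in Col-0 (-1.72 ± 0.15, adjusted p = 2.21e-05), 1 of 7 against 3.1% of features, while CML37 was higher there, 1 of 7 against 4.19% of features. Its Col-0 mock and coi1-2 levels were below the array medians, so the size of differences from them is uncertain.

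AT1G76640 was 3.13 ± 0.15 (log2, SE) higher in ein3 eil1 than in Col-0 under mock (adjusted p = 1.7e-07). MeJA raised it by 1.44 ± 0.15 in Col-0 (adjusted p = 7.35e-05), 1 of 7 of the list against 4.56% of features, and by 1.24 ± 0.15 in ein3 eil1 (adjusted p = 0.000762), 1 of 7 against 1.68% of features. In coi1-2 it was at 0.09 ± 0.15 (adjusted p = 0.926), and in limma 0 of 7 were called higher there, with 1 at an unadjusted p under 0.05, against 1.55% of features. The difference between the MeJA responses of coi1-2 and Col-0 passed (-1.35 ± 0.22, adjusted p = 0.00968), 1 of 7 lower against 0.784% of features, though it was lost without coi1-2 MeJA replicate 2 (0.0673). That between ein3 eil1 and Col-0 did not pass (-0.20 ± 0.22, adjusted p = 0.747), and there limma called 0 of 7 lower, with 1 at an unadjusted p under 0.05, against 1.39% of features. CML38 and AT1G76640 have probe sets of their own, and whether their probes detect both transcripts was not tested.

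CML37, a wound-induced relative of CML38, was above Col-0 in both mutants under mock, at 5.50 and 5.77 in coi1-2 (1.93 ± 0.27, adjusted p = 0.000498) and 4.68 and 5.21 in ein3 eil1 (1.24 ± 0.27, adjusted p = 0.012), against 3.81 and 3.61 in Col-0. The ein3 eil1 difference did not pass without mock replicate 2 of Col-0 (0.0809) or of ein3 eil1 (0.146). The listed relative AT3G01830 did likewise, with 6.21 and 6.91 in coi1-2 (2.82 ± 0.41, adjusted p = 0.000658) and 5.48 and 6.05 in ein3 eil1 (2.02 ± 0.41, adjusted p = 0.00756), against 3.48 and 4.01 in Col-0. Its ein3 eil1 difference did not pass without Col-0 mock replicate 1 (0.0824) or ein3 eil1 mock replicate 2 (0.0928). With MeJA, CML37 was at 4.92 and 4.80 in coi1-2, against 3.96 and 3.56 in Col-0 (1.10 ± 0.27, adjusted p = 0.0275), a call lost without Col-0 MeJA replicate 2 (0.243) or either coi1-2 MeJA array (0.18 and 0.114). AT3G01830 was likewise higher in coi1-2 with MeJA, at 6.06 and 5.19 against 4.30 and 3.96 in Col-0 (1.5 ± 0.41, adjusted p = 0.0474), a call lost by eBayes with trend and robust (0.0517) and without any 1 of 8 of the 12 arrays (at most 0.376). CML23 was higher in coi1-2 under mock, with 4.58 and 5.39 against 3.69 and 3.70 in Col-0 (1.29 ± 0.23, adjusted p = 0.00221). CML37, AT3G01830 and CML23 were near or below the lower quartile in Col-0 mock, and the first pair near it with MeJA, so the size of these differences is uncertain. CML43 was higher in ein3 eil1 under mock (0.98 ± 0.19, adjusted p = 0.00456), a call lost without ein3 eil1 mock replicate 1 (0.062). CML30, CML41 and CML42 passed in none of the 9 comparisons. With MeJA 2 of 7 were higher in ein3 eil1 than in Col-0 (2.92% of features), AT1G76640 (2.93 ± 0.15, adjusted p = 3.1e-07) and CML37 (1.33 ± 0.27, adjusted p = 0.0124), the CML37 call being lost without Col-0 MeJA replicate 2 (0.108) or ein3 eil1 MeJA replicate 2 (0.0578). The list's median difference under mock was 0.33 in ein3 eil1 and 0.07 in coi1-2, beside -0.03 for all features in both.

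**Figure D4:**
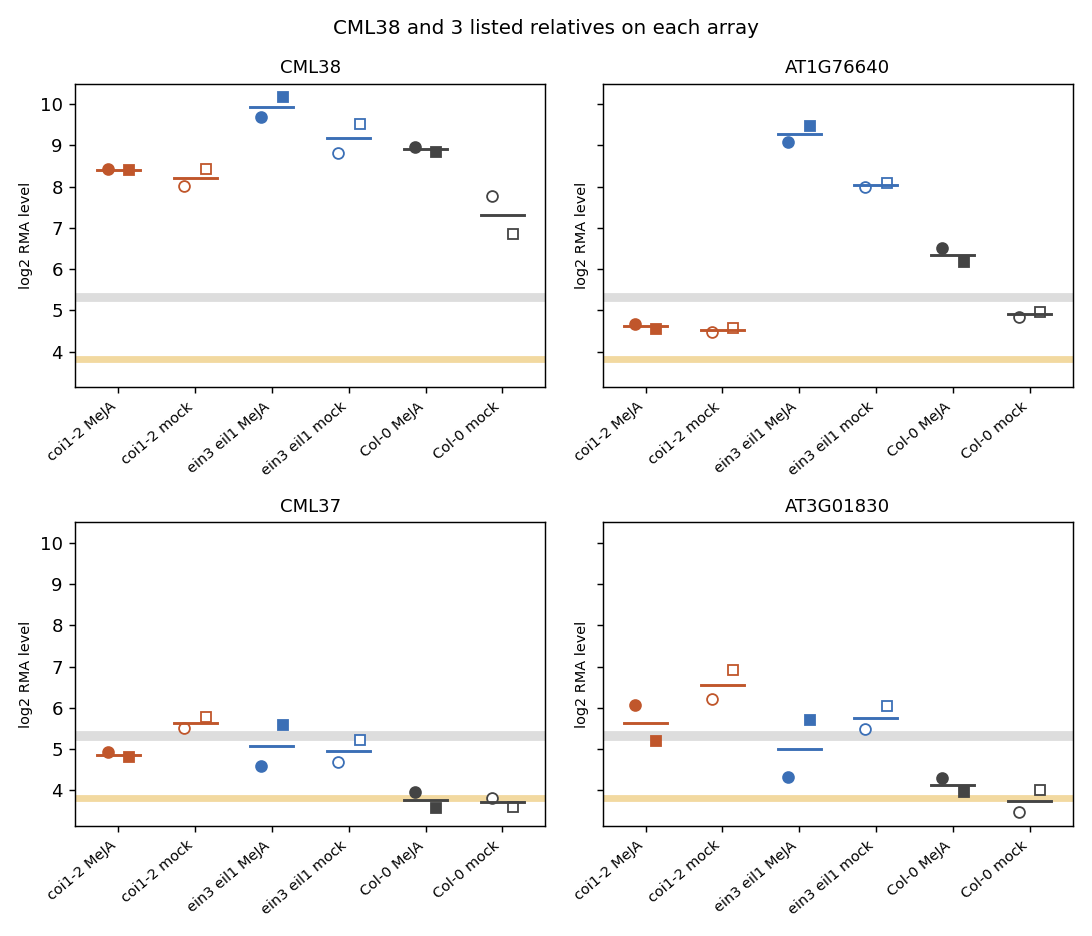
Log2 RMA level (y axis) of CML38, its table neighbour AT1G76640, CML37 and AT3G01830 on each array, by group (x axis), with symbols, lines and bands as in the plot of the 4 genes. AT1G76640 is high in ein3 eil1 and low in coi1-2, while CML37 and AT3G01830 have their highest group mean in coi1-2 mock.

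Glutamate receptor-like channels, which carry calcium signals after wounding in Arabidopsis, were added as a list after the gene names had been seen. Of 8 measured, MeJA raised 1 in Col-0 (4.56% of features), GLR3.3, which had 5.17 and 5.42 with MeJA, against 4.75 and 4.15 with mock (0.85 ± 0.18, adjusted p = 0.0108). It did not pass without replicate 2 of Col-0 mock (0.0986) or of Col-0 MeJA (0.103). ATGLR1.2 was highest in coi1-2 mock, at 4.67 and 4.73 against 3.82 and 3.88 in Col-0 mock (0.85 ± 0.12, adjusted p = 0.00068), 1 of 8 higher against 7.41% of features, and this call held under every alternative run (0.000304 to 0.00889). Its Col-0 mock level was near the lower quartile, so the size is uncertain. In coi1-2 1 of 8 fell with MeJA (1.01% of features), again ATGLR1.2, at 4.17 and 4.07 with MeJA (-0.57 ± 0.12, adjusted p = 0.0287), a call lost without any 1 of the 4 coi1-2 arrays (0.112 to 0.222). GLR3.3 with MeJA was lower in coi1-2 than in Col-0 (-1.0 ± 0.18, adjusted p = 0.00397), 1 of 8 against 3.1% of features, lost without Col-0 MeJA replicate 2 (0.0546).

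Few genes of the other lists could be tested. Of 13 senescence genes 2 had a single-gene probe set, of 24 jasmonate genes 1, of 9 ethylene genes 1, and of 26 rapid stress genes and of the further zinc finger genes of the ZAT and AZF family none was analysed here. SAG101, which acts with EDS1 in immunity and was named for senescence, was higher in coi1-2 under mock, at 5.90 and 5.97 against 4.65 and 4.62 in Col-0 (1.3 ± 0.19, adjusted p = 0.000527), and also with MeJA (1.23 ± 0.19, adjusted p = 0.00121). SAG29 did not pass in either (0.10 ± 0.14, adjusted p = 0.751, and 0.50 ± 0.14, adjusted p = 0.0548). SAG101 did not change detectably with MeJA in coi1-2 (-0.43 ± 0.19, adjusted p = 0.392).

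OPCL1, a CoA ligase of jasmonate biosynthesis, was in Col-0 and ein3 eil1 distributed much as STZ was. It had 7.84 and 8.16 in ein3 eil1 with MeJA and 8.03 and 8.0 with mock, against 8.13 and 8.04 in Col-0 with MeJA and 6.64 and 6.88 with mock. In coi1-2, OPCL1 was at 7.23 and 7.17 with MeJA and at 7.07 and 6.84 with mock, unlike STZ, which was high there. Under mock OPCL1 was 1.26 ± 0.14 higher in ein3 eil1 than in Col-0 (adjusted p = 9.91e-05) and at 0.20 ± 0.14 in coi1-2 (adjusted p = 0.45). PDF1.2, a defensin induced by jasmonate and ethylene together, was at 7.95 and 8.79 in ein3 eil1 mock, against 3.66 and 4.27 in Col-0 mock (4.40 ± 0.41, adjusted p = 1.9e-05). CML38 was also above Col-0 in ein3 eil1 mock. For PDF1.2, 1 of the Col-0 mock arrays was below the lower quartile, so the size of its difference is uncertain. The MeJA difference of PDF1.2 passed in no genotype. It was 0.82 ± 0.41 in Col-0 (adjusted p = 0.322), 0.76 ± 0.41 in ein3 eil1 (adjusted p = 0.406) and -0.13 ± 0.41 in coi1-2 (adjusted p = 0.968).

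For tissue makeup, EXPA7, an expansin of root hairs, was the only 1 of 5 root markers measured, and none of 4 shoot markers was analysed here, so the whole-seedling label could not be checked for shoots. EXPA7 was at 6.34 and 6.39 in coi1-2 mock, against 7.21 and 7.23 in Col-0 mock (-0.86 ± 0.16, adjusted p = 0.00345), and all 4 genes were higher in coi1-2 mock. In ein3 eil1 under mock, where STZ, WRKY6 and CML38 were also higher, EXPA7 did not pass against Col-0 (-0.13 ± 0.16, adjusted p = 0.708). The ein3 eil1 arrays with MeJA had 6.07 and 6.35, against 7.25 and 6.92 with mock (-0.88 ± 0.16, adjusted p = 0.00835), a call lost without ein3 eil1 mock replicate 1 (0.113) or MeJA replicate 1 (0.0602). With MeJA, EXPA7 was also lower in ein3 eil1 than in Col-0 (-1.03 ± 0.16, adjusted p = 0.00217), and this held under every alternative run (at most 0.0278). In coi1-2 with MeJA, EXPA7 did not pass against Col-0 (-0.49 ± 0.16, adjusted p = 0.0938). Its part in the levels of the 4 genes was not tested.

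The named genes most like each of the 4 were found by Pearson's r over the 12 arrays among 9379 named genes with a mean level above the 25th percentile. The points share arrays and genotypes, and with so many candidates high values arise by choice, so r is a description. WRKY6 was followed most closely by AT2G32190 (r = 0.98), which had 10.57 and 10.31 in coi1-2 with MeJA and 10.90 and 10.59 with mock, against 9.03 and 9.56 in Col-0 with MeJA and 8.48 and 8.06 with mock. The next were AT5G61560 and AT4G39140 (both r = 0.97). AT1G51890 was most like WRKY53 (r = 0.97), at 5.28 and 5.25 in coi1-2 mock and between 3.70 and 4.34 on the other 10 arrays. AT1G51920 (r = 0.96) and AT4G39830 (r = 0.94) had the same shape, with 5.15 and 4.97, and 4.61 and 4.69, in coi1-2 mock. On the other 10 arrays AT1G51920 lay between 3.47 and 3.96 and AT4G39830 between 3.56 and 3.92, near the lower quartiles. Their r with WRKY53 thus rests mainly on the 2 coi1-2 mock arrays.

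The genes most like STZ and CML38 were found in the same way. For STZ the closest were AT2G38740 (r = 0.94), AT3G04640 (r = 0.93) and AT5G54300 (r = 0.91), and AT3G04640 had 6.25 and 6.21 in Col-0 mock and lay between 7.26 and 8.38 on the other 10 arrays. For CML38 they were AT2G04400 (r = 0.95), AT1G76590 and AT1G72940 (both r = 0.94). AT2G04400 had 10.42 and 10.64 in ein3 eil1 with MeJA and 9.86 and 10.24 with mock, against 10.13 and 10.02 in Col-0 with MeJA and 8.44 and 8.46 with mock. Among the 4 genes themselves r was 0.81 for STZ and CML38, 0.60 for WRKY6 and WRKY53 and 0.51 for WRKY6 and STZ, and between -0.33 and 0.07 for the other 3 pairs.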

How the data were processed

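The authors deposited log2 expression values of 22810 probe sets on 12 ATH1 arrays. RMA, Partek and Affymetrix Expression Console are the tools named in the submitters' processing notes; their versions and the genome build are not given in the sources used here. From 100 ng of total RNA, biotin-labelled targets were made by a protocol for whole-transcript sense targets, per the labels. The 64 control probe sets were left out. Gene names came from the platform annotation (13513 probe sets with 1 gene name, 503 with several, 8730 with none), updated through the TAIR10.1 gene table for 13436. Probe sets of 1 gene were averaged (147 genes), which left 22588 features.

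Group means of the 6 groups were fitted to all 12 arrays (lmFit and eBayes of limma 3.58.1, R 4.3.3), with 6 residual and 6.24 prior degrees of freedom. P-values were adjusted by Benjamini-Hochberg over all features of a comparison, with a threshold of 0.05. The method was tested on simulated data. Named were the 4 genes, all measured relatives, per list up to 4 genes with the smallest adjusted p and up to 2 that did not pass, and the 3 genes most like each of the 4. The 4 genes and the lists were chosen with earlier results of these data known. The lists covered WRKY, calmodulin-like, ZAT and AZF genes, relatives, rapid stress, senescence, jasmonate, ethylene, shoot and root genes, and glutamate receptor-like genes. Python 3.11.15, pandas 2.3.3 and matplotlib 3.10.9 were used.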

Additional observations from a re-analysis of the deposited data

Results flagged for a closer look

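In STZ and WRKY6 the MeJA arrays of Col-0 lay above the mock arrays (20.1% of features) while those of a mutant lay below. In coi1-2, where 21.8% of features lay below, the MeJA differences were within their errors: -0.24 ± 0.25 (log2, SE) for STZ, whose arrays nearly touched, and -0.22 ± 0.23 for WRKY6. In ein3 eil1, where 21.5% lay below, WRKY6 was at -0.60 ± 0.23. The difference of the responses was -1.96 for STZ in coi1-2, and for WRKY6 -0.99 in coi1-2 (-1.35 to -0.64 with 1 array left out) and -1.37 in ein3 eil1 (log2). These differences were not tested, because the genes were chosen with them in view. Among the genes that were tested, the MeJA response of AT1G76640 was smaller in coi1-2 than in Col-0 (-1.35, limma adjusted p = 0.00968, 0.00425 to 0.0673 over the alternatives, lost without coi1-2 MeJA replicate 2). That of OPCL1 was smaller in coi1-2 (-1.08, adjusted p = 0.0231). The call was lost without replicate 1 of either mock group, Col-0 or coi1-2, or without any 1 of the 4 MeJA arrays of these genotypes. The OPCL1 response was also smaller in ein3 eil1 (-1.34, adjusted p = 0.00698), and this held under every alternative run. Under mock, OPCL1 was already 1.26 ± 0.14 above Col-0 in ein3 eil1, beside 0.20 ± 0.14 in coi1-2. A smaller response in ein3 eil1 by itself thus does not show dependence on the mutated genes.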

How the results depend on the processing

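Quantile normalization, centring arrays on their medians, a filter at the 25th percentile, eBayes with trend and robust, and the replicate block each left the count of called features in the 9 comparisons within 1.5 times of the value reported. Centring moved the median of all features to -0.15 for ein3 eil1 against Col-0 under mock, to 0.10 for MeJA in ein3 eil1 and to 0.15 for the difference of the ein3 eil1 and Col-0 responses. Under mock it turned the split of the ein3 eil1 calls to 1135 higher and 1487 lower, against 1385 and 723, and for MeJA in ein3 eil1 to 536 higher and 436 lower, against 379 and 590. With 1 array left out, the counts ran from 1072 to 2030 for MeJA in Col-0 (1722 reported), 239 to 730 in coi1-2 (578) and 289 to 1373 in ein3 eil1 (969). Against Col-0 they ran from 1733 to 3505 for coi1-2 (3045) and 1073 to 2524 for ein3 eil1 (2108) under mock, and from 753 to 1983 (1646) and 630 to 1374 (1237) with MeJA. The differences of responses ran from 107 to 387 for coi1-2 (264) and 127 to 1038 for ein3 eil1 (409).

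For WRKY6, WRKY53, STZ and CML38, 0 of 180 differences under the other settings moved by more than the within-group SD, and 2 turned sign, both of WRKY53 in ein3 eil1 and near 0. Of 432 with 1 array left out 42 moved by more than that and 11 turned sign. STZ in ein3 eil1 with MeJA ran from -0.01 to 0.70 against Col-0. WRKY6 in ein3 eil1 ran from -0.89 to -0.18 against Col-0 with MeJA. CML38 in coi1-2 under mock ran from 0.44 to 1.36. Replicate numbers are shared by all groups. The deviations of same-numbered arrays correlated between -0.22 and 0.23 over 15 pairs of groups, 4 of them above 0.1. These values do not show whether some groups shared a batch, which was not tested. With the replicate block MeJA in Col-0 gave 1698 calls, coi1-2 570 and ein3 eil1 915. The block gave 3019 and 2136 calls for coi1-2 and ein3 eil1 against Col-0 under mock, 1624 and 1238 with MeJA, and 280 and 390 for the differences of responses. Signal near background limits WRKY53 most.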
